A study of Mus musculus with 6 samples.

Results

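A small set of genes is active in the fetal mouse liver and silenced around birth. It was followed here in hepatocytes sorted by ploidy at 3 weeks of age, together with its repressors Zhx2 and Zbtb20. The listed genes were Afp, H19, Igf2, Gpc3, Dlk1, Lpl, Cd24a, Zhx2 and Zbtb20, and every probe set annotated with 1 of these symbols alone was taken. This gave 17 probe sets for 7 of the 9 genes, out of 12393 genes measured in the series. No values are given for H19, whose single probe set also carries a second symbol, or for Zhx2, which no probe set carried as its only symbol. Both are not analysed here.

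Hepatocytes came from wild-type C57BL/6 mice aged 3 weeks, with no transgene or drug in any group. The fresh cells were stained with a Hoechst DNA dye and separated by flow cytometry into a diploid and a tetraploid fraction, from which RNA was taken directly. Each fraction was hybridised to 3 Affymetrix arrays. DNA content alone defined the fractions, so a diploid cell that had finished copying its DNA would be sorted as tetraploid. The labels number the replicates as biological without naming animals, and a p-value here therefore measures the spread between arrays, part of which may be technical. In bulk RNA, fewer cells expressing a gene and less RNA per cell cannot be told apart.

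The fetal liver makes alpha-fetoprotein (Afp), the albumin of the fetus, and growth regulators such as the insulin-like growth factor Igf2. Many of these genes return in liver tumours and regeneration, which is why they are called oncofetal. Afp lies beside Alb, the albumin gene, and the neighbours are both active before birth. Afterwards Afp falls while Alb stays high. Zbtb20 is a zinc finger repressor that binds the Afp promoter, and Zhx2 is a homeobox repressor first mapped through mouse strains in which Afp and H19 persist.

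At 3 weeks Afp, Igf2, Gpc3 and Lpl were still above background, Igf2 close to it, and Dlk1 and Cd24a were not. The repressor Zbtb20 was also above background, and no member was called different between the fractions. Values are log2 intensities, and the background level of an array was set at the 95th percentile of 71 probe sets for smell and taste receptors, genes not known from hepatocytes. It lay between 5.44 and 5.59 on the 6 arrays, and 13309 of 22626 probe sets (58.8%) exceeded it on all of them. Of the 17 member probe sets, 9 did so, covering 5 of the 7 measured genes. Taking the brightest probe set of each gene, 64.4% of all 12393 genes were above background. By limma, 0 of 22626 probe sets passed an adjusted p of 0.05, a background of 0%, and 0 of the 17 members were among them. The smallest adjusted p on the arrays was 0.206. At an unadjusted p under 0.05 there were 1561 probe sets (6.9%), and 2 of the member probe sets were among these, 1 for Afp and 1 for Igf2. Among the probe sets above background the share was 7.36%.

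The promoters of Afp and Alb, and that of Gpc3, are shown because Afp and Alb are neighbours of 1 gene family that part ways after birth, while Gpc3 is a fetal gene of another kind, still above background and starting in CpG-rich sequence. Each window runs from 250 bases before to 50 bases after the start given by RefSeq on GRCm38.p6. The Afp window is chr5:90490464-90490763 on the plus strand, the Alb window chr5:90460620-90460919 on the plus strand and the Gpc3 window chrX:52613925-52614224 on the minus strand. Capitals mark matches on either strand to GTTAAT, which is a half-site of the liver factor HNF1, to TATAAA, which is the TATA box, and to CCAAT, which NF-Y binds. GTTAAT and CCAAT matches do not overlap in these windows.
Afp: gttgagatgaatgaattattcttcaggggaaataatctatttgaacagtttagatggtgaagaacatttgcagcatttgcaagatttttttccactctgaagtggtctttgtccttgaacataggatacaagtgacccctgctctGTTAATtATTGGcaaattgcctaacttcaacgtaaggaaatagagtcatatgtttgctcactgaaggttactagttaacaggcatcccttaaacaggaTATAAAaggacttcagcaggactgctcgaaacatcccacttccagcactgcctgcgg
Alb: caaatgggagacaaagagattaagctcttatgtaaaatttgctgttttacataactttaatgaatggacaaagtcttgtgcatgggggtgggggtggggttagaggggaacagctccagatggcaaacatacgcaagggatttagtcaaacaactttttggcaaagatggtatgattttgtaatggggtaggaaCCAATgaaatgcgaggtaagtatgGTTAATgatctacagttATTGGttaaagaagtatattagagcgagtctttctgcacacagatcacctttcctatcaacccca
Gpc3: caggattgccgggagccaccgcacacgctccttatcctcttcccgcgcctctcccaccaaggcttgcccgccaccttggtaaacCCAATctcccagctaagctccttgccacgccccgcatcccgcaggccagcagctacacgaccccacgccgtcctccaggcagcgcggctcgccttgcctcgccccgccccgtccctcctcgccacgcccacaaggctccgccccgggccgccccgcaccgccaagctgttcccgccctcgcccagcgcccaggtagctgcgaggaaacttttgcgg
The Afp and Alb windows each had a GC content of 40.0% and 3 CpG, against medians of 52.7% and 7 over 32851 promoter windows. The Gpc3 window had 70.7% and 30 CpG. GTTAAT or its reverse is found in 7.1% of all windows, TATAAA in 13.6% and CCAAT in 37.4%. The Afp window held GTTAAT 105 bases before the RefSeq start, followed after 1 base by CCAAT on the other strand, and TATAAA beginning 7 bases before it. The Alb window held GTTAAT 32 bases before its start, and 2 matches to the CCAAT box. The Gpc3 window held only a CCAAT match, 166 bases before the start. Among the other members RefSeq windows were used for Igf2 (4 starts), Dlk1 and Zbtb20, which held no GTTAAT or TATAAA. A match is a description of the letters and not evidence of a bound factor.

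Afp, the fetal serum protein, was above background in both fractions and higher on average in tetraploid cells. The brightest of its 5 probe sets, 1416645_a_at, read 6.94, 7.37 and 7.32 on diploid replicates 1 to 3 and 7.56, 7.44 and 7.53 on tetraploid replicates 1 to 3. All 3 tetraploid arrays were above all 3 diploid arrays, with diploid replicate 1 the lowest. The means were 7.21 ± 0.23 and 7.51 ± 0.06 (SD, n = 3), a log2 difference of 0.29 ± 0.12 (SE) or 1.23-fold, with a 95% interval from 0.02 to 0.57 and an adjusted p = 0.715 by limma. The difference was 0.16 without diploid replicate 1 and 0.37 without diploid replicate 2.

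The second Afp probe set, 1416646_at, gave 6.59, 6.91 and 6.88 in diploid cells and 6.95, 7.10 and 6.93 in tetraploid cells. The fractions again did not overlap, but were separated by 0.02 on the log2 scale, and the difference was 0.20 ± 0.11 (SE). It was 0.10 without diploid replicate 1 and 0.15 to 0.26 without each other array in turn. With the arrays centred on their medians or quantile normalized again, its fractions overlapped. Probe set 1436879_x_at, of a kind that can match other transcripts, crossed the background on 2 of 3 diploid and 3 of 3 tetraploid arrays, and the 3 tetraploid values, from 5.57 to 5.78, overlapped the diploid ones, from 5.31 to 5.63. The remaining pair, 1436881_x_at and 1436880_at, was below background on all 6 arrays, at 4.66 to 5.27, so no difference is given. Compared with the height of its own background, the brightest Afp probe set stood 1.37 to 2.06 above it. Of 13 measured markers of endothelial cells, 10 were also higher on average in tetraploid cells, where 44.5% of all genes were higher. The part of these cells in the Afp value was not tested.

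**Figure D1:**
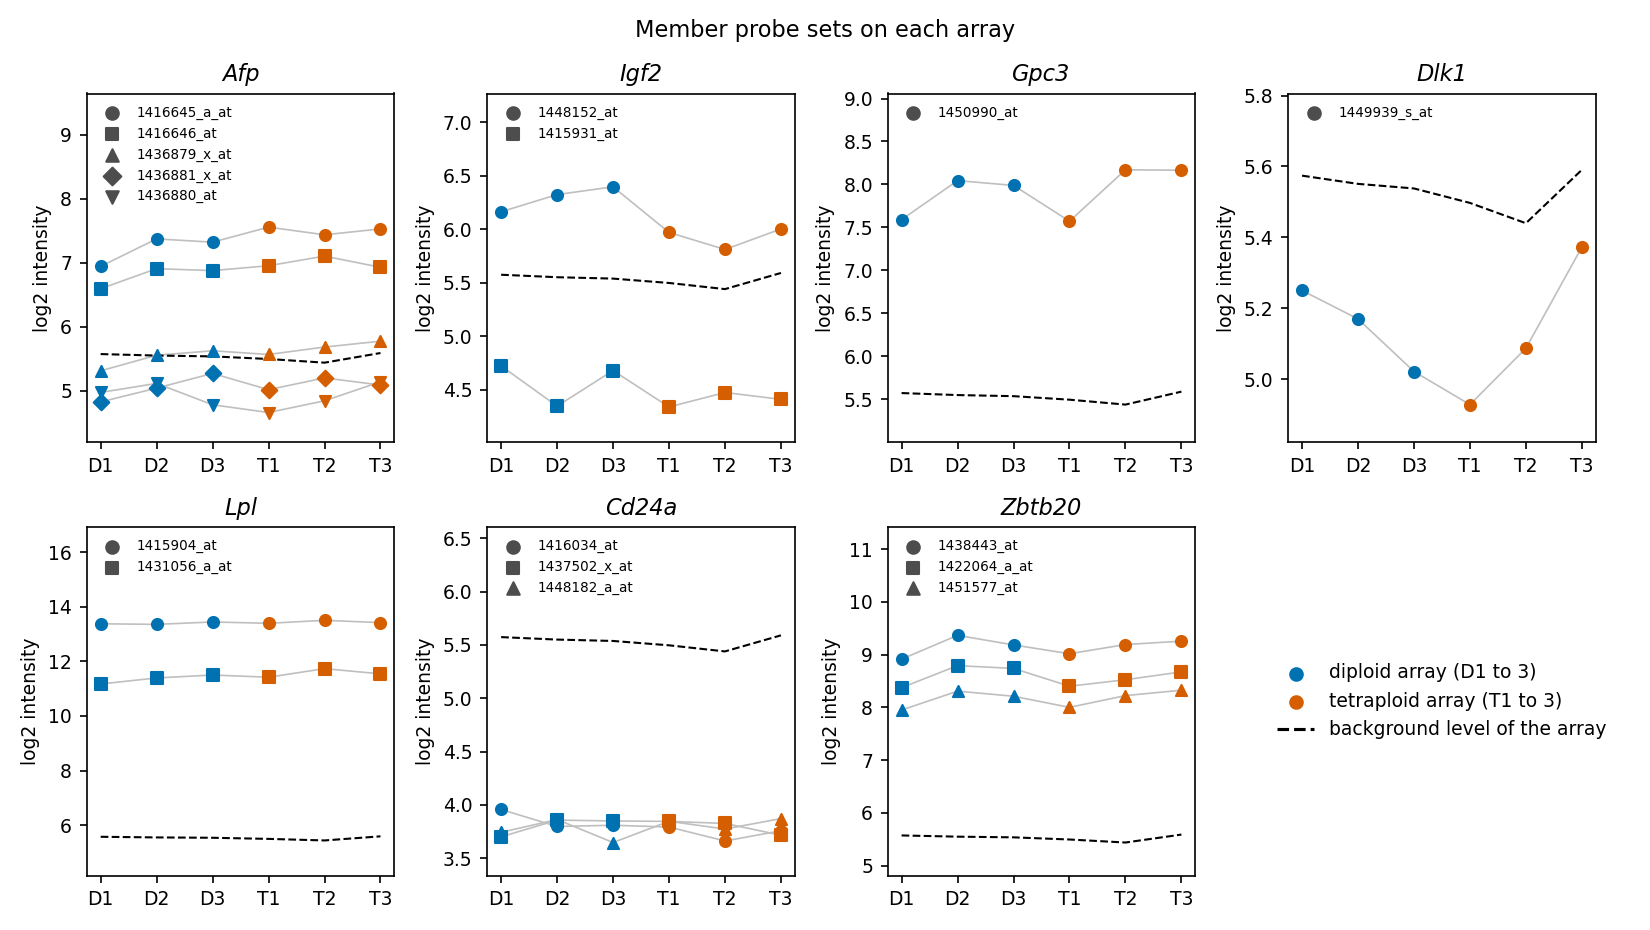
Log2 intensity of each member probe set (vertical axes) on the 6 arrays (D1 to D3, diploid; T1 to T3, tetraploid); 1 marker shape per probe set, the dashed line is the array's background level, and the axes differ between genes. The 3 Cd24a probe sets lie below the line on every array, while both for Lpl and all 3 for Zbtb20 lie above it.

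Igf2, a fetal growth factor expressed from the paternal allele, showed the lowest p among the members. Probe set 1448152_at read 6.16, 6.32 and 6.40 on the diploid arrays and 5.97, 5.81 and 6.00 on the tetraploid arrays. Every tetraploid value lay under every diploid value, the gap being 0.16. The means were 6.29 ± 0.12 and 5.93 ± 0.10 (SD, n = 3), a log2 difference of -0.37 ± 0.10 (SE), or 1.29-fold more in diploid cells, with a 95% interval from -0.58 to -0.15. By limma the unadjusted p was 0.0044 and the adjusted p = 0.504, and 197 of the 22626 probe sets had a p as small or smaller. All 14 alternatives that could be computed for this probe set kept its sign, between -0.43 and -0.30, and its unadjusted p under 0.05.

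The level of Igf2 was close to background in both fractions. On the diploid arrays it stood 0.59 to 0.86 above the background level and on the tetraploid arrays 0.37 to 0.47. With the highest receptor probe set, or the receptor median plus 3 scaled median absolute deviations, as background level, Igf2 no longer exceeded it on all 6 arrays. The other Igf2 probe set, 1415931_at, was below background on every array, at 4.35 to 4.72 in diploid and 4.34 to 4.47 in tetraploid cells. The exact permutation test of a single probe set over the 10 splits of the arrays cannot give a p below 0.1, which is the value for every fraction pair that does not overlap.

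Of the 9 member probe sets above background, 3 had fractions that did not overlap, the pair for Afp and the one for Igf2, against 13.9% of the 13309 probe sets above background. These are 2 genes, since probe sets of a gene share its RNA. The median log2 difference of the 9 was 0.05, with 6 higher and 3 lower on average, against a median of 0.01 over the 13309.

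**Figure D2:**
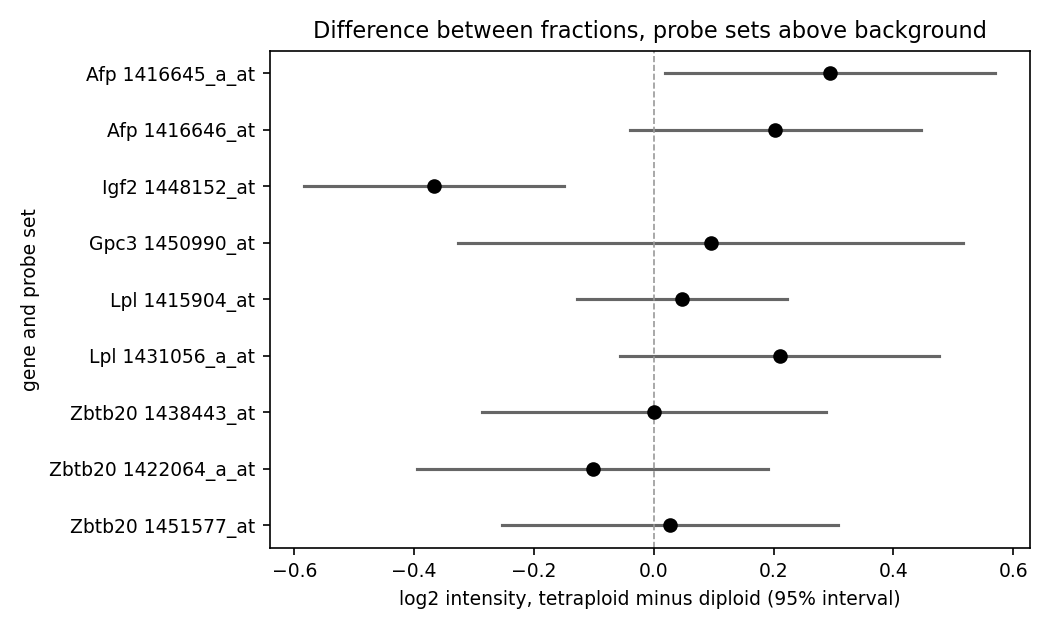
Log2 difference, tetraploid minus diploid (horizontal axis), for the 9 member probe sets above background on all 6 arrays; points are limma estimates from 3 arrays a fraction and bars 95% intervals. Only the bars of Afp 1416645_a_at and Igf2 1448152_at leave out 0, and neither passed after adjustment.

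Gpc3, a heparan sulphate proteoglycan of the cell surface and a marker of liver cancer, was above background on all arrays, by 2.02 to 2.73. Its probe set, 1450990_at, gave 7.59, 8.05 and 7.99 in diploid cells and 7.57, 8.17 and 8.17 in tetraploid cells. The fractions overlapped, and replicate 1 was lowest in both. The difference was 0.09 ± 0.18 (SE), with a 95% interval from -0.33 to 0.52 and an adjusted p = 0.946 by limma, which spans 0.797- to 1.43-fold. Its sign turned when diploid replicate 1 (-0.05), tetraploid replicate 2 (-0.006) or tetraploid replicate 3 (-0.003) was left out.

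Lpl, lipoprotein lipase, which frees fatty acids from circulating triglyceride, is made by the liver of newborn rodents and is low in the adult organ. At 3 weeks its probe sets were far above background in both fractions, 1415904_at by 7.80 to 8.07 and 1431056_a_at by 5.60 to 6.29. The first gave 13.38, 13.36 and 13.44 in diploid and 13.40, 13.50 and 13.42 in tetraploid cells, which overlap. The difference was 0.05 ± 0.08 (SE), with a 95% interval from -0.13 to 0.22, that is 0.915- to 1.17-fold, and an adjusted p = 0.937 by limma. The second probe set differed by 0.21 ± 0.12 (SE), with overlapping fractions and an interval from -0.06 to 0.48, and by 0.12 without diploid replicate 1 and 0.13 without tetraploid replicate 2. The deposited values hold no saturation flag.

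Lpl is also made by macrophages, and 4 of 13 measured Kupffer cell markers (Cd5l, Csf1r, C1qa and Lyz2) were above background on all arrays, while Clec4f, Vsig4, Adgre1, Marco and Cd68 were not. The summed intensity of that list lay between 559 and 627 in diploid and between 505 and 598 in tetraploid cells. The single Lpl probe set 1415904_at had intensities from 10498 to 11625. Probes differ in brightness, so this is no ratio of transcripts, and the part of these cells in the Lpl value was not tested.

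Dlk1, a Notch-like surface protein of hepatoblasts, and Cd24a, a glycosylated surface protein of progenitors, were not above background on any array. Dlk1 (1449939_s_at, of a kind that may match related transcripts) gave 5.25, 5.17 and 5.02 in diploid and 4.93, 5.09 and 5.37 in tetraploid cells, 0.22 to 0.57 under the background level. Only with the 25th percentile of all probe sets as background did Dlk1 exceed it on all 6 arrays. The 3 Cd24a probe sets lay between 3.65 and 3.96 on the 6 arrays, which is 1.61 to 1.89 under the level. Because both fractions were below background, no fold change is given for either gene, and a small difference between them could not be seen on these arrays.

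Zbtb20, the repressor, was above background by 2.38 to 3.82 on all arrays in all 3 probe sets. The brightest, 1438443_at, gave 8.92, 9.37 and 9.19 in diploid and 9.02, 9.19 and 9.26 in tetraploid cells. The means were 9.16 ± 0.23 and 9.16 ± 0.12 (SD, n = 3), and the difference was -0.0003 ± 0.13 (SE), with a 95% interval from -0.29 to 0.29. The other probe sets, 1422064_a_at and 1451577_at, differed by -0.10 ± 0.13 and 0.03 ± 0.12 (SE), with adjusted p = 0.918 and 0.981 by limma. All 3 had overlapping fractions, and the sign of 1438443_at and 1451577_at changed with the setting.

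Some members varied alike over the arrays and others did not. The 3 Zbtb20 probe sets varied together, with Pearson correlations from 0.88 to 0.96 over the 6 arrays, a description of arrays that share their normalisation. Gpc3 followed Zbtb20 (0.73 to 0.94 with its probe sets), while the Afp probe sets above background correlated with those of Zbtb20 at 0.29 to 0.57. Afp 1416645_a_at correlated at 0.86 with its second probe set, which correlated more closely, at 0.92, with Lpl 1431056_a_at. That Lpl probe set correlated at 0.84 with the brighter one and at 0.76 with Gpc3, and Igf2 at -0.40 with Afp 1416645_a_at. In 5 of the 9 probe sets above background, replicate 1 was the lowest of its fraction in both fractions, namely Gpc3, the 3 for Zbtb20 and Lpl 1431056_a_at, against 18.2% of the 13309 probe sets above background. These are 3 genes, since probe sets of a gene share its RNA, and the brighter Lpl probe set did not show the pattern. Same-numbered arrays are not known to be matched. The pooled SD within fractions exceeded the median of 0.117 for 7 of the 9 probe sets, and was 0.30 for Gpc3.

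**Figure D3:**
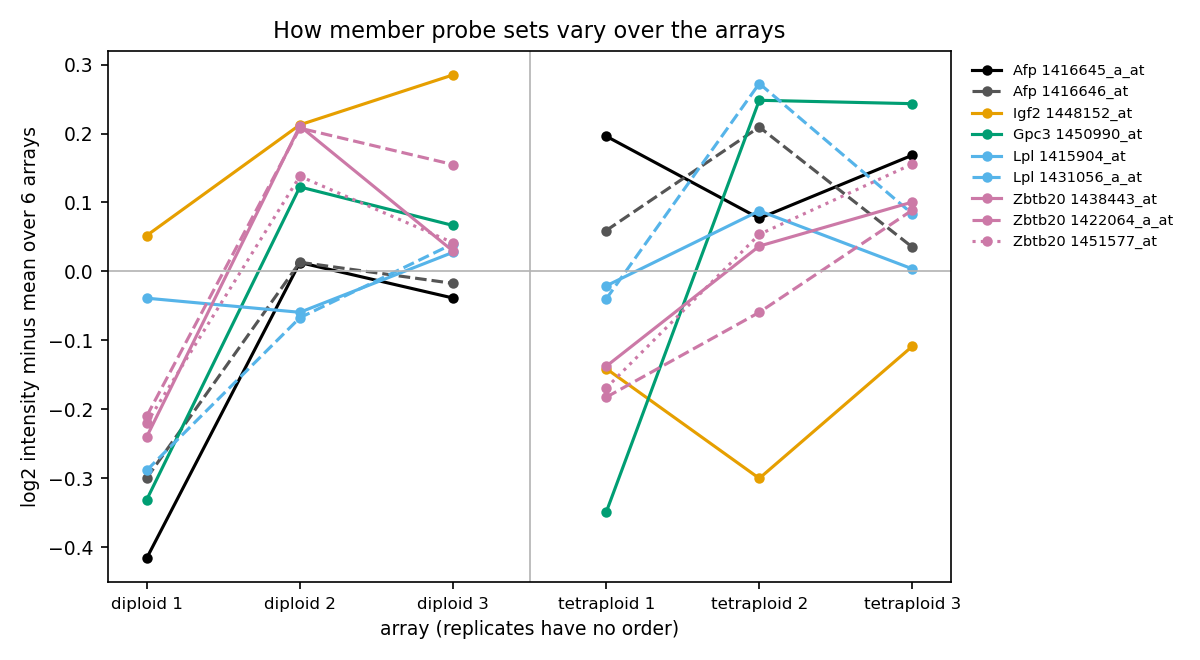
Log2 intensity minus the mean over the 6 arrays (vertical axis) for the 9 member probe sets above background, by array; lines only join values of a probe set within a fraction, since replicates have no order. Igf2 is above 0 on all diploid arrays and below on all tetraploid arrays. Diploid replicate 1 is lowest of its fraction for 8 of the 9, which include several probe sets of the same gene. The share over all probe sets was not computed for this count.

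The genes most like each member over the 6 arrays, by Pearson correlation among 9884 other genes, were Cyp2c29 (0.998), Pura (0.994) and Il13ra1 (0.990) for Afp. For Igf2 they were Nenf (0.984), Csf2ra (0.978) and Slc25a28 (0.977), and for Gpc3 Mknk1 (0.999), Fem1b (0.999) and Pitpnc1 (0.981). Lpl was closest to Abcd4 (0.997), Riok1 (0.988) and Gas7 (0.987), and Zbtb20 to Wdr77 (0.994), Tshz1 (0.987) and Map3k4 (0.987). With 6 arrays, between 51 and 187 genes exceeded 0.9 for a member, so these names describe the arrays only.

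A list of transcription factors was drawn up around Afp, holding factors known at its promoter and enhancers together with relatives and partners such as Zhx1 and Tox4. Of its 19 measured genes 16 were higher on average in tetraploid cells, with a median log2 difference of 0.07. Over all genes, dim ones included, 44.5% were higher and the median was -0.02. The 17 factors above background had a median of 0.08, against 0.01 over the 13309 probe sets above background. Of these 19, 0 passed limma's adjusted p of 0.05 and 0 an unadjusted p under 0.05, against 5.86% of all genes. Nr5a2, a nuclear receptor that activates Afp, read at most 10.07 on the diploid arrays and 10.17, 10.21 and 10.20 on the tetraploid arrays. Its fractions did not overlap, and the difference was 0.16 ± 0.07 (SE) with an adjusted p = 0.731. Nfix differed by 0.13 ± 0.08 and Nfyb, a subunit of NF-Y, by 0.20 ± 0.13, and Nr2f2, an orphan receptor, by 0.19 ± 0.13 (SE, n = 3 per fraction).

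The other oncofetal genes leaned lower, at 20 of 28 measured with a median of -0.08. All genes leaned the same way, with 44.5% higher and a median of -0.02. Only 13 of the 28 were above background on all arrays. By limma 0 passed after adjustment, with 2 higher and 3 lower at an unadjusted p under 0.05, against 1.84% higher and 4.02% lower over all genes. Bex4 had means of 9.07 ± 0.17 on diploid and 8.77 ± 0.11 on tetraploid arrays (SD, n = 3), with no overlap. Robo1, a guidance receptor, was at 7.34 ± 0.32 and 7.78 ± 0.15, with overlap. Hk2, the hexokinase of fetal and tumour cells, and Epcam, a surface marker of progenitors and bile ducts, also had an unadjusted p under 0.05, but were not above background on all arrays. Tff3, a secreted trefoil peptide, named after its value was seen, was the remaining gene of the 5 and was above background on all arrays, at 9.25 ± 0.34 on diploid and 8.72 ± 0.38 on tetraploid arrays (SD, n = 3), with overlap. Igf2bp1, Lin28a, Hmga2, Sall4 and Peg10 were not above background on all arrays either, and Igf2bp3 was, differing by 0.10 ± 0.10 (SE).

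Imprinted growth genes other than Igf2 went both ways, 9 higher and 13 lower of 22, with a median of -0.05, and 0 passed after adjustment by limma. Igf2r, which clears Igf2 from the cell surface, gave 9.24, 9.29 and 9.33 in diploid and 9.47, 9.50 and 9.42 in tetraploid cells. Its fractions did not overlap, with a difference of 0.18 ± 0.07 (SE) and an adjusted p = 0.723, and Igf2 itself lay the other way. Cdkn1c, a cyclin-dependent kinase inhibitor, differed by 0.31 ± 0.14 and Slc22a18, an imprinted transporter, by -0.25 ± 0.10. Magel2 was not above background on all arrays. Meg3, the maternally expressed RNA of the Dlk1 locus, was above background, at 6.97 ± 0.16 and 6.89 ± 0.23 (SD, n = 3), where Dlk1 was not.

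Of the 4 measured genes of adult liver that depend on Zhx2, Mup3, a major urinary protein, differed by -0.32 ± 0.21, Cyp2a12, a cytochrome P450, by 0.08 ± 0.08 and Elovl3, a fatty acid elongase, by -0.09 ± 0.21 (SE), and Cyp4a12a was not above background on all arrays. The genes that mature after birth were all above background, 19 of 19, with a median difference of -0.01, and Apoa4, an apolipoprotein, had the smallest p among them, at -0.30 ± 0.08 (SE). Alb, the Afp neighbour, read 15.54 to 15.58 on the 6 arrays and Afm, afamin of the same family, differed by -0.05 ± 0.08. Alb lies at the top of the scale, where equalising the arrays leaves little room for a difference. Red cell genes were largely below background, with 6 of 17 above it, and the embryonic globins Hbb-y, Hbb-bh1 and Hba-x were not.

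**Figure D4:**
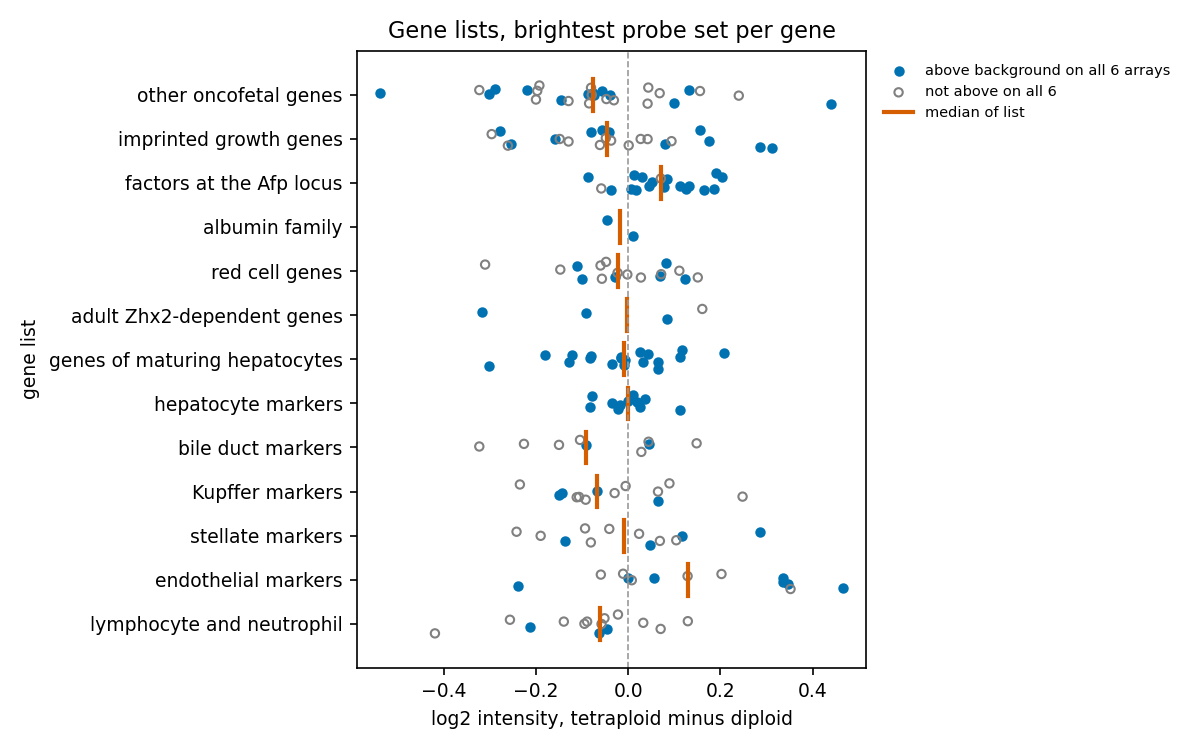
Log2 difference, tetraploid minus diploid (horizontal axis), of the brightest probe set of each listed gene (rows are lists, points are genes, orange bars are list medians). The endothelial markers have a median of 0.13, the transcription factors listed for Afp of 0.07 and the other oncofetal genes of -0.08, and 0 genes passed after adjustment.

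The label of the cells was checked with markers. All 11 measured hepatocyte markers were above background, with a median difference of 0.00017. Bile duct markers were above it for 2 of 9 (Sox9 and Pkhd1), stellate markers for 4 of 12, lymphocyte and neutrophil markers for 3 of 14 and endothelial markers for 7 of 13. The endothelial sums were 1207 to 1336 in diploid and 1313 to 1554 in tetraploid cells, which overlap. Of the 13 endothelial markers 10 were higher on average in tetraploid cells, the direction of Afp, where 44.5% of all genes were higher. Their median difference was 0.13, or 0.34 over the 7 above background, against -0.02 over all genes. By limma 0 passed after adjustment and 4 had an unadjusted p under 0.05, all higher, against 1.84% of all genes. They were Aqp1, a water channel, at 0.47 ± 0.11, and Mrc1, Fcgr2b and Clec4g, receptors of the sinusoidal lining, at 0.35 ± 0.13, 0.34 ± 0.13 and 0.34 ± 0.14 (SE). All but Clec4g, 3 of them, had fractions that did not overlap, against 13.9% of the 13309 probe sets above background. The other markers above background were Kdr at 0.06 ± 0.13, Eng at 5.3e-06 ± 0.11 and Stab2, lower, at -0.24 ± 0.20 (SE). Stab1 and Pecam1, not above background on all arrays, were also lower on average. Leaving out 1 array, the endothelial median ran from 0.059, without diploid replicate 3, to 0.214, without diploid replicate 2. The lymphocyte and neutrophil sums were 485 to 489 and 449 to 465, without overlap and in the direction of Igf2. Of these 14 markers 11 were above background on no array, so the sums rest largely on values below background. The bile duct sums were 485 to 529 and 460 to 519, which overlap. Krt19, Krt7, Cldn7 and Cftr were not above background on all arrays. The part of these cells in the value of Igf2 was not tested.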

How the data were processed

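Biotin-labelled cRNA from sorted hepatocytes was hybridised to 6 arrays, 3 per fraction, and samples were grouped by their titles. The values the authors deposited are intensities, not logged, with 1 for each probe set on an array, made with RMA per the submitters' processing notes, with software and version not given in the sources used here. RMA equalises the arrays, so differences are relative to other transcripts and total RNA per cell is not measured. Of 22690 probe sets, 64 controls were left out, and log2 values of the other 22626 were fitted with limma 3.58.1 in R 4.3.3 (lmFit, eBayes, two-sided, Benjamini-Hochberg over all probe sets). The fit was tested on simulated data. The platform annotation gave 1 symbol to 20380 probe sets, several to 691 and none to 1555, and the Entrez identifiers of all 7 measured members matched RefSeq (GRCm38.p6). The deposited table holds no coordinates and names no build, so only promoter windows carry positions. For lists, the brightest probe set stood for a gene. Beside the members, the rule named up to 4 genes of smallest p per list and the 3 most correlated genes per member. The other genes named were picked after their values were seen, to show a list's makeup. The number of arrays limits the precision, the median standard error being 0.099. Members and lists were chosen with earlier results of these data known. Alternatives were filters on dim probe sets, 1 probe set per gene without the dimmest 25% of genes, an offset of 16, other scalings and variance models. Array weights, a replicate block, each array left out and other background levels were also used.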

Additional observations from a re-analysis of the deposited data

How the results depend on the processing

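No member passed limma's adjusted p of 0.05 under any of 15 alternatives. Of 130 recomputed member differences, 120 kept their sign, and the 10 that turned were of Gpc3 and Zbtb20. Leaving out each array, Gpc3 ran from -0.047 to 0.293, turning without diploid replicate 1 (-0.047), tetraploid replicate 2 (-0.0058) and tetraploid replicate 3 (-0.0033). Zbtb20 1438443_at ran from -0.120 to 0.105 and turned without diploid replicates 2 and 3 and tetraploid replicate 1. Zbtb20 1451577_at ran from -0.076 to 0.118, turning without diploid replicate 1 and tetraploid replicate 3, and was at -0.0080 when quantile normalized again and -0.013 with array weights. The probe sets of Afp, Igf2 and Lpl above background and Zbtb20 1422064_a_at kept their sign wherever they were computed.

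With the replicate number as a block 10 probe sets passed and no member was among them. Same-numbered arrays deviated together for replicate 1 but not for 2 and 3 (correlations of 0.44, -0.15 and -0.16), so the numbers were not taken to pair the samples. The highest correlation was 0.56, of diploid 3 with tetraploid 2, and diploid 2 with tetraploid 3 gave 0.24. Other differently numbered pairs ran from -0.44 to -0.05. Whether the fractions are matched in another order was not tested, and the main fit takes no pairing into account. Leaving out 1 array gave 0 to 1 probe sets passing by limma, and 1022 to 1687 at an unadjusted p under 0.05. Of the 9 member probe sets above background, 3 to 5 were then without overlap. The count was 5 without diploid replicate 3 (with both for Lpl) or tetraploid replicate 1 (with Gpc3 and Lpl 1431056_a_at). Fewer arrays overlap less readily, and the share over all probe sets was not computed for these counts. Unadjusted counts were 856 without the dimmest 50% of probe sets and 574 with 1 probe set per gene and the dimmest 25% of genes left out. Fewer were tested in both, 11313 and 9295.

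Genes above background numbered 5, and 4 to 6 with other background levels. Leaving out 1 array, list medians ran from -0.090 to -0.052 for other oncofetal genes, from -0.079 to -0.021 for imprinted genes, from -0.016 to 0.010 for hepatocyte, -0.088 to 0.013 for Kupffer and -0.103 to -0.045 for lymphocyte and neutrophil markers. An offset of 16 and renewed quantile normalization moved the oncofetal median to -0.054 and -0.047, and the latter the imprinted median to -0.020; the cause was not tested. Without the dimmest 50%, medians were 0.021 (red cell), 0.045 (bile duct), -0.144 (Kupffer) and 0.117 (stellate), and no lymphocyte or neutrophil gene was left. The setting with 1 probe set per gene also left out the dimmest 25% of genes. Medians there were 0.029 (bile duct), -0.081 (stellate) and -0.089 (lymphocyte and neutrophil). The last was the same without the dimmest 25% of probe sets. List medians always use 1 probe set per gene, so only the filter could move them. Fewer genes were left in these lists. Overlap cannot change with the block, the variance model or array weights. Values near background are compressed, which limits what differences can be seen there.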
